A study of Mus musculus with 9 samples.

Results

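Xkr4 spans 465.598 kb on the minus strand of mouse chromosome 1 (GRCm38, 1:3205901-3671498), and long noncoding transcripts are listed inside its introns. These intronic transcripts were chosen by position: every listed transcript whose span overlaps the gene, widened by under 1 kb at either side, was taken. That gave 9 of the 69547 transcripts. The gene itself was picked with results of these libraries already known, so the changes and adjusted p-values below describe these 9 libraries and are not independent evidence.

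XKR4 belongs to the XKR family of membrane proteins, some of which move phospholipids between the leaflets of the plasma membrane once caspases have cut them. Phosphatidylserine exposed in this way marks dying cells for phagocytes, and XKR4 has been described as a scramblase that also needs a fragment of the DNA repair protein XRCC4. In mouse tissue Xkr4 is known mainly as a gene of the nervous system. Because introns are copied with the rest of a gene and then removed, a transcript listed inside an intron on the gene's own strand can be read either as a separate RNA or as unspliced RNA of the gene, and counts alone do not tell these apart.

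Total RNA of spinal cord from wild-type C57BL/6 mice aged 7 to 9 weeks was sequenced on day 7, with 3 libraries in each of 3 groups. HBO cords came from injured mice treated with hyperbaric oxygen, a therapy in which oxygen is inhaled at raised pressure. Injury cords came from injured mice without it, and control cords are labelled as having no injury, although the series design calls that group sham, so whether these animals were operated on is not settled. Nothing states that the 3 libraries of a group are 3 animals, and each p-value therefore reflects variation among libraries that may be technical. The labels give neither the type and level of the injury nor the oxygen schedule. The listed noncoding transcripts held 2295433 to 3148744 counts per library. The 9 Xkr4 transcripts held 565, 464 and 495 counts in the HBO libraries and 416, 571 and 549 in the injury libraries. In the control libraries they held 745, 713 and 768 counts.

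Xkr4 has 3 exons and 2 introns in GENCODE M21, and all 9 transcripts lay inside the introns, with no base on an exon of the gene. Intron 1, 248.65 kb long, held 6 of them. In the direction of transcription these were Gm19938, Gm38148, Gm37329, Gm1992, Gm37686 and NONMMUT000007.2. Intron 2, 204.733 kb long, held Gm37363, Gm37180 and NONMMUT000004.2. Of the 7 with a GENCODE model, 5 (Gm38148, Gm37329, Gm37686, Gm37363 and Gm37180) are single-exon models of the class TEC, given to unspliced models that still await experimental support. Gm19938 is a sense intronic RNA with 2 exons. These 6 lie on the strand of Xkr4. Gm1992 is a spliced antisense RNA on the other strand. The 2 NONCODE transcripts carry no strand in the files. Function has been assigned here to none of the 9.

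The last 50 bases of the 6 sense transcripts are shown because the end of a finished, polyadenylated RNA usually carries a polyadenylation signal. Sequences are the GENCODE M21 transcripts on GRCm38, read 5′ to 3′ on the minus strand, and capitals mark the longest run of A in each.
Gm19938: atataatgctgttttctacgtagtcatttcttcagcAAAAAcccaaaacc
Gm38148: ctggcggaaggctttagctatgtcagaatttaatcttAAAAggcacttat
Gm37329: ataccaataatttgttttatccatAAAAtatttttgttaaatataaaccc
Gm37686: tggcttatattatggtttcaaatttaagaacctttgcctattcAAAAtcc
Gm37363: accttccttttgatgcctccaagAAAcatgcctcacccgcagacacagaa
Gm37180: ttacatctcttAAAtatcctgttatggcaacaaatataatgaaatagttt
In that order the stretches are 1:3647309-3647358, 1:3592892-3592941, 1:3512451-3512500, 1:3464977-3465026, 1:3375556-3375605 and 1:3365731-3365780. Neither AATAAA nor ATTAAA, searched on the transcript's strand, was found in any of the 6 ends. Across all GENCODE M21 transcripts 29.0% of 3295 TEC, 39.5% of 9100 lincRNA and 50.2% of 58787 protein-coding ones held one of these motifs in their last 50 bases. The longest run of A in the 6 ends was 3 to 5 bases. The absence of these letters from a window says nothing of how the RNAs end.

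Gm1992 is shown because both of its exons lie wholly within transcripts listed on the opposite strand, so the same DNA is counted under different names. Exon 1 (1:3466587-3466687, plus strand, 101 bases) is the complement of bases 599 to 699 of Gm37686. Exon 2 (1:3513405-3513553, 149 bases) is the complement of bases 955 to 1103 of Gm37329. Capitals mark AATAAA, which begins 32 bases before the end of exon 2.
Gm1992 exon 1: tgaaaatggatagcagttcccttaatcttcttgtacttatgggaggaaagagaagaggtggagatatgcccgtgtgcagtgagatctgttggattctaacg
Gm1992 exon 2: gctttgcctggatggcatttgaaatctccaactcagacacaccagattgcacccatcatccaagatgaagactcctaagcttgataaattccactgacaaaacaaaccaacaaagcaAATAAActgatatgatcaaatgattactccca
Gm1992 was counted 0, 3 and 1 times in the HBO libraries, 1, 5 and 2 times in the injury libraries and 0 times in each control library. These counts were too few for it to pass the filter on low counts. Were reads spread evenly over Gm37329 and Gm37686, the bases shared with Gm1992 would have held 12.1 reads over the HBO libraries, 13.7 over the injury libraries and 19.3 over the control libraries. The order of the groups in the few Gm1992 counts differed from that of these assumed values. How many reads of the sense transcripts fell on the shared bases is not known. No source used here states whether reads were assigned by strand, so sense and antisense reads over these bases may not be told apart.

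The other 8 transcripts passed the filter and made a repeating pattern along the gene. In FPKM, which is per length and so can be compared between transcripts, the control libraries averaged 3.12 ± 0.60 for Gm19938, which begins 12.594 kb from the start of Xkr4 (SD, n = 3 for this and the following levels). They averaged 3.64 ± 0.38 FPKM for Gm38148, 2.41 ± 0.20 for Gm37329, 1.18 ± 0.34 for Gm37686 and 0.93 ± 0.33 for NONMMUT000007.2, the last before exon 2. The level thus fell along intron 1 from Gm38148 on. Past exon 2 it was higher again, at 3.72 ± 0.21 FPKM for Gm37363 and 3.93 ± 0.37 for Gm37180, and then 2.75 ± 0.20 for NONMMUT000004.2 further on. Neighbours in the list such as Gm19938 and Gm38148, Gm37686 and NONMMUT000007.2, or Gm37363 and Gm37180 differed by less than the sum of their SDs.

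**Figure D1:**
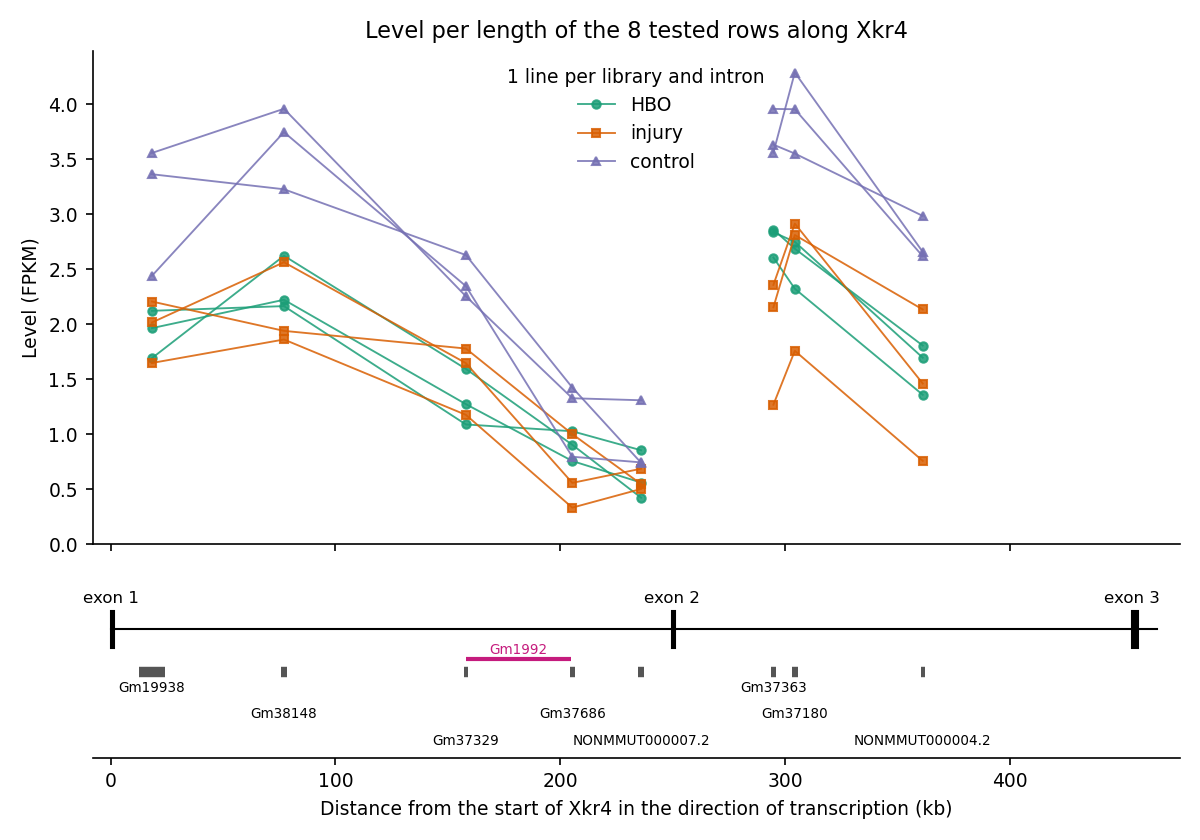
Level per length (FPKM) of the 8 tested transcripts against the distance of their midpoint from the start of Xkr4, with 1 line per library and intron, above the exons of the gene and the span of each of the 9 transcripts. In all 9 libraries the level fell across intron 1 and was higher at the first transcript past exon 2, and the control lines lie mostly above the others.

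The same shape was seen in each library. A straight line through the 5 tested transcripts of intron 1 fell by 0.82 ± 0.13 log2 FPKM per 100 kb in the HBO libraries, by 0.93 ± 0.11 in the injury libraries and by 0.89 ± 0.09 in the control libraries (SD, n = 3 each). The slope was negative in 9 of 9 libraries, between -1.04 and -0.67. Across exon 2, Gm37363 stood 2.53-fold to 6.71-fold above NONMMUT000007.2 in FPKM, again in 9 of 9 libraries. From Gm37363 to NONMMUT000004.2 the level was lower in all 9 libraries too, by a log2 difference between -0.94 and -0.01, with the value nearest 0 in injury replicate 3.

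The slope of intron 1 was a common one. Among 150 introns of at least 100 kb that share no transcript and hold 5 or more tested ones, each spanning under 20 kb, 137 (91.3%) had a level that fell in the direction of the host gene's transcription, with a median slope of -0.65 log2 per 100 kb (quartiles -1.01 and -0.29). In other genes, tested transcripts linked by overlapping spans were left out. For Xkr4 an exception kept Gm37329 and Gm37686, which the span of Gm1992 links. Without it intron 1 would not have reached 5 tested transcripts. With it, intron 1 of Xkr4 is 1 of these introns, at -0.86, and 47 of the 150 were steeper. Outside the gene the level was below that of most tested transcripts inside it. The 13 transcripts listed within 150 kb beyond its 3′ end averaged 0.05 to 0.60 FPKM over the 9 libraries. The 2 within 150 kb before its start averaged 0.18 and 0.26 FPKM. These were taken without the filter on low counts, which the tested transcripts had passed, so part of the contrast may come from the filter. Deep in intron 1 the contrast did not hold. There NONMMUT000007.2 averaged 0.61 FPKM in HBO cords and 0.58 in injury cords. Gm1992, which did not pass the filter, averaged 0.39 FPKM in HBO cords, 0.69 in injury cords and 0 in control cords.

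Values by library are given next as CPM, counts scaled by each library's total and edgeR's TMM factor, which compares libraries within a transcript but not transcripts with each other. In intron 1, Gm19938 had 40.8, 36.8 and 29.9 CPM in HBO cords, 34.5, 43.2 and 35.8 in injury cords and 56.8, 55.6 and 42.5 in control cords. The HBO libraries were all below the control libraries, while the highest injury library reached just above the lowest control library. Gm38148 had 38.4, 38.5 and 42.9 CPM in HBO cords, 36.0, 35.1 and 42.1 in injury cords and 50.3, 57.2 and 60.3 in control cords. Here all 6 libraries from injured mice were below all 3 control libraries. Gm37329 had 13.2, 15.1 and 17.8 CPM in HBO cords, 15.5, 22.0 and 18.5 in injury cords and 28.0, 22.2 and 25.8 in control cords, again without overlap with the control libraries, though only just so for injury.

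Deeper in intron 1 the counts were lower and the groups ran into each other. Gm37686 had 14.0, 10.04 and 11.3 CPM in HBO cords, 4.93, 13.9 and 7.01 in injury cords and 17.0, 14.7 and 9.81 in control cords, so all 3 groups overlapped. NONMMUT000007.2 had 12.4, 7.95 and 5.66 CPM in HBO cords, 7.96, 8.09 and 9.23 in injury cords and 9.46, 15.5 and 9.81 in control cords. The injury libraries lay just below the control libraries, and the HBO libraries spread across both.

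In intron 2, Gm37363 had 37.7, 33.5 and 34.4 CPM in HBO cords, 18.2, 31.6 and 26.2 in injury cords and 42.0, 38.1 and 47.3 in control cords. It was the 1 transcript of the 8 whose 3 groups were apart from each other, with HBO between injury and control. The share of all features with 3 groups apart in this way was not counted, so this cannot be called unusual. Gm37180 had 44.6, 37.6 and 42.0 CPM in HBO cords, 31.8, 49.3 and 43.2 in injury cords and 51.9, 58.0 and 59.6 in control cords. NONMMUT000004.2 had 18.2, 13.4 and 15.8 CPM in HBO cords, 8.34, 15.0 and 19.9 in injury cords and 26.5, 21.8 and 24.0 in control cords. For both, HBO and injury overlapped and lay below control.

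**Figure D2:**
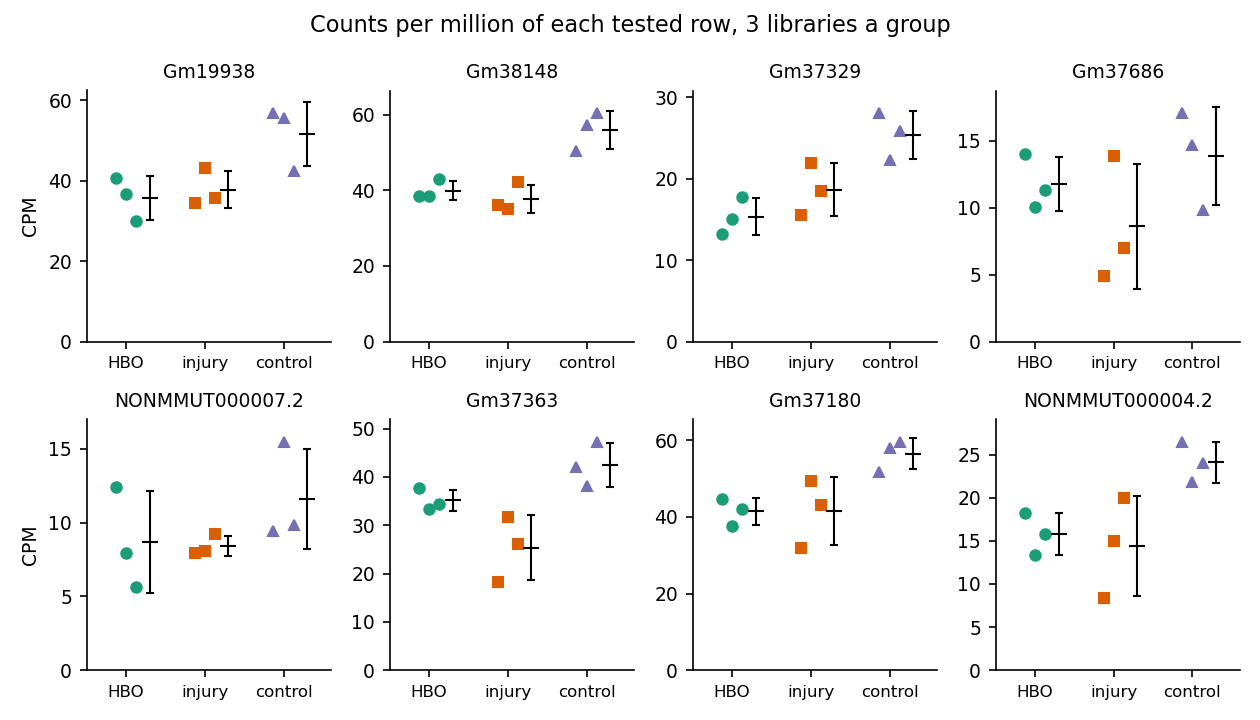
CPM of the 8 tested transcripts, with 1 panel each in the order of the gene, 1 point per library and the mean ± SD of each group beside its points. The control points lie above all injury points in 6 panels and above all HBO points in 6 panels.

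Injury cords were set against control cords to ask which transcripts changed 7 days after the injury. The log2 change was below 0 for 8 of 8 transcripts, between -0.74 and -0.44, with a median of -0.51. Over all 26602 features tested the median was 0.01, and 49.6% of them were below 0. No Xkr4 transcript was called by edgeR's quasi-likelihood test at a Benjamini-Hochberg adjusted p under 0.05, where 6.06% of all features were called and 2.43% were called lower. Without adjustment 5 of 8 had a p under 0.05, against 27.7% of all features, and 6 of 8 had injury libraries wholly below control libraries, against 18.8%. The lowest adjusted p-values were 0.0548 for Gm38148, at a log2 change of -0.57 (SE 0.15), and 0.0637 for Gm37363, at -0.74 (SE 0.21). The adjusted p-values of those transcripts passed the threshold in DESeq2 (0.0361 and 0.0235) and with library totals from the FPKM values (0.0421 and 0.0421). DESeq2 called 3674 features in this comparison, against 1611 in the main fit, and the FPKM totals moved the median of all features to -0.21. Crossing the threshold under either is therefore not particular to these transcripts.

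HBO cords were set against control cords next, a comparison that shares its control libraries with the one above. The log2 change was below 0 for 8 of 8 transcripts, between -0.72 and -0.23, with a median of -0.47 beside -0.00 over all features. None was called (4.29% of all features were called and 1.39% were called lower). Without adjustment 4 of 8 had a p under 0.05, against 25.9%, and 6 of 8 had HBO libraries wholly below control libraries, against 16.7%. The log2 change farthest from 0 was that of Gm37329, -0.72 (SE 0.20, adjusted p = 0.0732), and the nearest that of Gm37686, -0.23 (SE 0.38, adjusted p = 0.743), which was -0.05 without control replicate 1 and -0.42 without control replicate 3.

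HBO cords were set against injury cords to ask what the oxygen treatment changed. The log2 changes lay on both sides of 0, between -0.28 for Gm37329 (SE 0.20) and 0.47 for Gm37363 (SE 0.21), with 6 positive and 2 negative and a median of 0.06. Leaving out single libraries moved Gm37363 to 0.29 (without injury replicate 1) and Gm37329 to -0.15 (without injury replicate 2). None was called, and every adjusted p was 1.00 after rounding (0.015% of all features were called). Gm37363 was the 1 of 8 whose HBO libraries lay wholly above the injury libraries, which 4.41% of all features did, and the 1 of 8 with an unadjusted p under 0.05 (0.0494), which 3.63% of all features had. Gm37363 averaged 35.2 ± 2.2 CPM in HBO cords and 25.3 ± 6.7 CPM in injury cords (SD, n = 3 each).

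**Figure D3:**
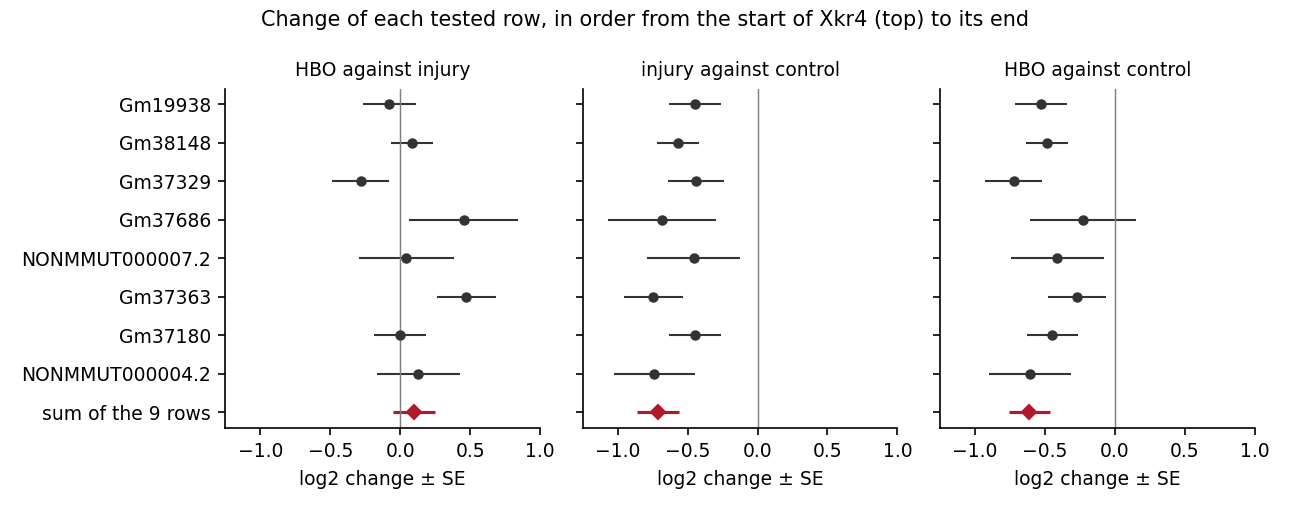
Log2 change with its standard error for the 8 tested transcripts, from the start of Xkr4 at the top to its end, and below them for the sum of the 9 transcripts (diamonds), in each comparison. The diamonds are scaled to the total of the coding-gene sums and the single transcripts to that of the single features, so their positions are not directly comparable. On the scale of the single transcripts the sum changed by -0.54 in injury against control and -0.46 in HBO against control. All points lie left of 0 against control, and they straddle 0 for HBO against injury.

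Taken as 1 value, the gene's transcripts were lower in injured cords with and without HBO. Counts were summed over the transcripts of each protein-coding gene's span, and 7084 such sums were fitted together. Scaled in CPM to the total of these sums, the Xkr4 sum was 357, 296 and 330 CPM in HBO cords, 239, 350 and 329 in injury cords and 504, 512 and 487 in control cords. The control libraries were close together and above the other 6, and injury replicate 1 was the lowest. In injury against control the log2 change was -0.71 (SE 0.15, edgeR adjusted p = 0.0220), or 38.9% lower, where 5.56% of all sums were called lower. For HBO against control it was -0.61 (SE 0.15, adjusted p = 0.0418), or 34.5% lower, where 2.92% of all sums were called lower. The HBO cords were 0.10 above the injury cords (SE 0.15, adjusted p = 0.991). With a replicate block neither comparison was called (adjusted p = 0.0622 and 0.0979), and HBO against control was also not called without a filter (0.0607) or with FPKM library totals (0.0559). The call in injury against control was lost without injury replicate 1 (adjusted p = 0.0593), control replicate 1 (0.0699) or control replicate 2 (0.0633). That in HBO against control was lost without HBO replicate 2 (0.128) or 3 (0.0853), injury replicate 3 (0.0574), or control replicate 1 (0.123), 2 (0.0986) or 3 (0.0725). On the scale of the single transcripts, an alternative chosen after seeing the data, the same sums had log2 changes of -0.54 and -0.46, and HBO against control was no longer called (adjusted p = 0.0532). With sums of transcripts off coding exons only, both comparisons were called (edgeR adjusted p = 0.000876 and 0.00218). Over the alternatives the call was kept in 14 and lost in 4 for injury against control. For HBO against control it was kept in 8 and lost in 10.

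Whether the transcripts moved together along the gene was read from their shares of the Xkr4 counts. Each of the 8 was set against the other transcripts of the same gene in a within-gene test (edgeR's diffSpliceDGE), over 3157 coding genes. Xkr4 was not called in any comparison. Its adjusted p was 1.00 after rounding in HBO against injury (0.697% of genes called), in injury against control (1.49%) and in HBO against control (1.01%). A p that misses the threshold does not show that the changes were equal. The single transcripts departed from the rest of the gene by at most 0.27 log2 in HBO against injury, 0.14 in injury against control and 0.18 in HBO against control. The largest of these was Gm37363, which held 17.2 ± 0.04% of the Xkr4 counts in HBO cords, 12.9 ± 1.4% in injury cords and 15.1 ± 1.7% in control cords (SD, n = 3 each). Gm37180, with the most counts, held 20.3 ± 0.8%, 21.3 ± 1.1% and 20.1 ± 1.5% in HBO, injury and control cords.

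Over all 9 libraries the shares varied by a chi-square of 1.53 per degree of freedom, where counting error alone gives about 1. Among 390 coding genes with at least 5 tested transcripts away from coding exons, the median was 1.89 (quartiles 1.59 and 2.19), and 82 genes were lower than Xkr4. The genes were not matched for counts, on which this value can depend, so the rank does not show that the shares of Xkr4 were steadier. Here too, transcripts linked by overlapping spans were left out of the other genes, while Gm37329 and Gm37686 were kept for Xkr4. Within groups the transcripts also tended to shift with the library. In injury replicate 1, 8 of 8 were below the mean of their group and 7 of 8 were the lowest of the 3 libraries. In HBO replicate 2, 7 of 8 were below the group mean. The control libraries showed no such split, with 4, 5 and 4 of 8 above the mean. Injury replicate 1 and HBO replicate 2 also had their groups' lowest sums for neuron markers and for coding genes of at least 300 kb. For microglia and macrophage markers, injury replicate 1 had the highest sum of its group. The shift was thus not particular to Xkr4, and its share over all features was not counted. Injury replicate 1 also had the lowest TMM factor of the 9 libraries, 0.866, and its part in these shifts was not tested.

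The ratio of counts between the 5′ and 3′ ends of the gene was compared as 1 value per library. The log2 ratio of the 5 transcripts centred nearer the start of the gene to the 4 centred nearer its end was -0.09, 0.14 and 0.06 in HBO cords, 0.46, 0.16 and 0.08 in injury cords and 0.23, 0.17 and -0.02 in control cords. The groups overlapped, and injury replicate 1 was the highest. The mean difference was -0.19 for HBO against injury (exact two-sided permutation test, p = 0.20), 0.11 for injury against control (exact p = 0.60) and -0.09 for HBO against control (exact p = 0.40). With 3 libraries against 3 the smallest p this test can give is 0.10. Without Gm37180, the transcript with the most counts, the ratios were 0.64, 0.89 and 0.87 in HBO cords, 1.41, 1.08 and 0.91 in injury cords and 0.96, 0.99 and 0.77 in control cords. HBO then lay wholly below injury, by -0.33, at that smallest exact permutation p of 0.10. With all 9 transcripts the difference for HBO against injury was -0.08 without injury replicate 1.

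Other genes of the pathway are seen in these files only through noncoding transcripts over their spans, not through their mRNAs. Of the 7 other XKR family genes, 1 had enough counts, Xkr6, which averaged 145 ± 36 CPM in HBO cords, 157 ± 49 in injury cords and 228 ± 29 in control cords (SD, n = 3 each). Its log2 change was -0.54 (SE 0.26, adjusted p = 0.194) in injury against control and -0.65 (SE 0.26, adjusted p = 0.142) in HBO against control. Of 18 tested genes of other lipid scramblases and flippases, 3 rose and 2 fell in injury against control, where 6.76% of all sums were called higher and 5.56% lower. In HBO against control 2 rose and 1 fell, where the shares were 5.21% and 2.92%. Plscr1, a phospholipid scramblase family member induced by interferon, rose by 2.12 (SE 0.47, adjusted p = 0.0248) in injury against control. Plscr4, of the same family, rose by 1.12 (SE 0.28, adjusted p = 0.0341) in that comparison. Atp8a2, a neuronal phosphatidylserine flippase, fell by 1.08 (SE 0.28, adjusted p = 0.0385) in the same comparison. The list's median was -0.01 in both comparisons with control, beside 0.03 and 0.02 over all sums.

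A list of caspases, Apaf1 and genes tied to the activation of XKR proteins had 6 tested members. Of these, 2 rose in injury against control and 1 in HBO against control, and none fell (6.76% and 5.21% of all sums were called higher). Xrcc4, whose protein gives the fragment named above, was not called, at log2 changes of 0.53 (SE 0.16, adjusted p = 0.0615) in injury against control and 0.58 (SE 0.16, adjusted p = 0.0575) in HBO against control. Apaf1, which assembles the caspase-activating apoptosome, rose by 1.64 (SE 0.36, adjusted p = 0.0248) in injury against control. Casp8, the initiator caspase of death receptors, rose by 1.64 (SE 0.31, adjusted p = 0.0196) in injury against control and by 1.30 (SE 0.32, adjusted p = 0.0417) in HBO against control. Of 8 tested genes for phosphatidylserine recognition, which lets phagocytes find dying cells, 5 rose in injury against control and 3 in HBO against control, and none fell, beside the same shares of all sums. Itgb5, an integrin subunit of this uptake, rose by 1.42 (SE 0.26, adjusted p = 0.0184) in injury against control and by 1.31 (SE 0.26, adjusted p = 0.0245) in HBO against control. Mertk, a receptor kinase of this kind, averaged 511 ± 120 CPM in HBO cords, 482 ± 124 in injury cords and 211 ± 31 in control cords (SD, n = 3 each). No gene of these lists was called in HBO against injury. Of the 7 tested neighbours of Xkr4 on the chromosome, 0 were called in any comparison. Their medians were 0.01, 0.03 and 0.04 for HBO against injury, injury against control and HBO against control.

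Markers of cell types moved between the groups beside Xkr4. Of 15 neuron markers 6 had enough counts, and 4 of these (Rbfox3, Syt1, Nefm and Gad2) fell in both comparisons with control, where 5.56% and 2.92% of all sums were called lower. The summed level of the 6 was 837 to 1216 CPM in HBO cords, 750 to 1176 in injury cords and 2028 to 2269 in control cords. Gad2, an enzyme of GABA synthesis, fell by 1.28 (SE 0.22, adjusted p = 0.0167) and Nefm, a neurofilament subunit, by 1.26 (SE 0.22, adjusted p = 0.0177) in injury against control. The list's medians were -1.12 in injury against control and -1.16 in HBO against control, against -0.71 and -0.61 for the Xkr4 sum. The other 9 neuron markers had no tested transcript over their span. The 6 tested oligodendrocyte markers, of which Olig1 and Olig2 rest on the same transcripts, had 0 called. With each transcript counted once they summed to 1508 to 1938 CPM in HBO cords, 1305 to 1694 in injury cords and 1600 to 2147 in control cords. The 2 Schwann cell markers also had 0 called. In bulk tissue, fewer cells of a type and less RNA per cell cannot be told apart, and the part of these cell types in the Xkr4 values was not tested.

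Markers of immune cells and fibroblasts had higher sums in injured cords. The summed levels of 6 microglia and macrophage markers were 364 to 447 CPM in HBO cords, 368 to 595 in injury cords and 212 to 247 in control cords. Of these 6, 3 rose in injury against control, where 6.76% of all sums were called higher, and 2 in HBO against control (5.21% of all sums). Msr1, a scavenger receptor of macrophages, averaged 24.1 ± 6.4 CPM in HBO cords, 47.3 ± 26.5 in injury cords and 4.54 ± 1.05 in control cords (SD, n = 3 each). The list was not uniform, as 1 of the 6, Gpnmb, was below 0 in injury against control (log2 change -2.55, SE 1.63, edgeR adjusted p = 0.338). It averaged 25.6 ± 22.4 CPM in HBO cords, 0.80 ± 0.37 in injury cords and 5.14 ± 6.19 in control cords (SD, n = 3 each). Cx3cr1 changed by 0.12 (SE 0.22) in injury against control. The 5 fibroblast markers summed to 1702 to 3220 CPM in HBO cords, 423 to 1148 in injury cords and 23.7 to 161 in control cords, with 3 of them called higher in injury against control and 2 in HBO against control. In HBO cords most of that sum was Col1a1, which averaged 2315 ± 715 CPM there, 602 ± 458 in injury cords and 56.2 ± 60.0 in control cords (SD, n = 3 each). Col1a1 was not called in HBO against injury (log2 change 1.94, SE 0.99, edgeR adjusted p = 0.991). In that comparison 4 of the 5 markers were below 0, with a list median of -0.24. Col1a2, a chain of type I collagen, averaged 120 ± 37 CPM in HBO cords, 124 ± 46 in injury cords and 6.94 ± 2.54 in control cords (SD, n = 3 each). Among 5 astrocyte markers 1, Slc1a3, a glutamate transporter, rose in both comparisons. Among 2 markers of oligodendrocyte precursors 1, Vcan, rose in both. The 3 endothelial markers had 0 called, at sums of 15.3 to 135 CPM in HBO cords, 29.5 to 42.6 in injury cords and 20.3 to 137 in control cords.

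Xkr4 was one of many very long genes that were lower. Of 30 other very long genes, many of them neuronal, 20 fell and 0 rose in injury against control, with a median log2 change of -0.72, and 11 fell and 0 rose in HBO against control, with a median of -0.59. All sums were called lower in 5.56% and 2.92% of cases in these comparisons. The largest change was that of Ptprt, -1.33 (SE 0.48), which was not called (adjusted p = 0.105). Galntl6 fell by 1.18 (SE 0.26, adjusted p = 0.0250) in injury against control and Dpp10, an accessory subunit of potassium channels, by 1.12 (SE 0.27, adjusted p = 0.0317). Among all 520 other coding genes of at least 300 kb with a tested sum, 136 fell and 33 rose in injury against control, and 80 fell and 31 rose in HBO against control. These 520 rest on 518 distinct sums, and all sums were called lower and higher at 5.56% and 6.76% in injury against control and at 2.92% and 5.21% in HBO against control. Of the 520, 153 had a lower log2 change than Xkr4 in injury against control. The medians of these genes were -0.38 and -0.29, against 0.03 and 0.02 for all 7084 sums.

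**Figure D4:**
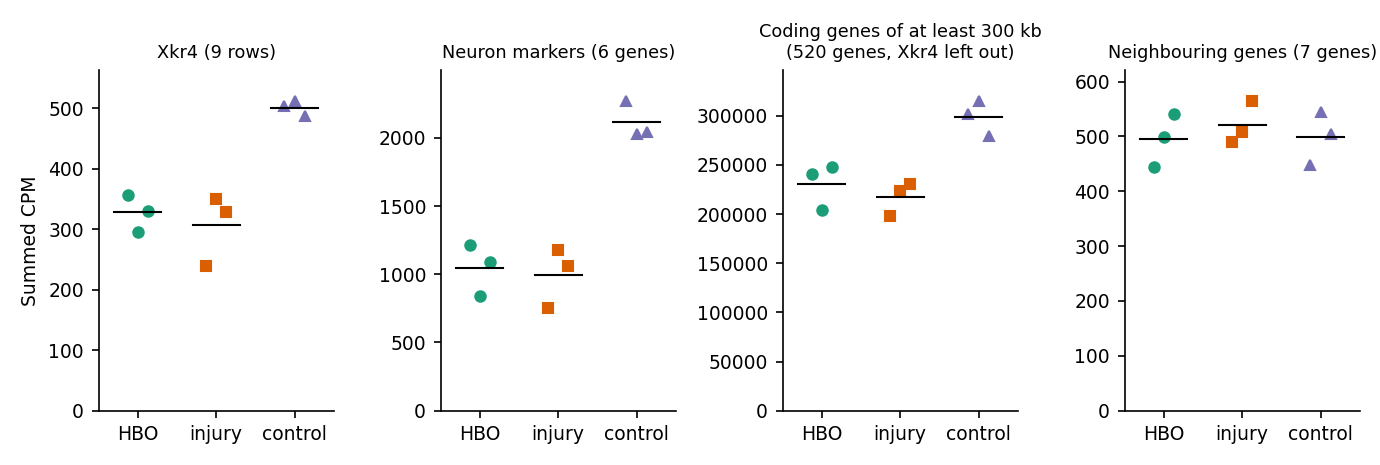
Summed CPM by library (1 point each, group mean as a line) for the 9 Xkr4 transcripts, 6 neuron markers, 520 other coding genes of at least 300 kb and 7 neighbouring genes. The first 3 panels have all control points above all HBO and injury points, and the neighbouring genes overlap between groups.

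Features elsewhere with the pattern most like the Xkr4 sum were sought among 21120 features at a mean of 5 CPM or more, by Pearson's r of log2 CPM over the 9 libraries. The 5 highest had r between 0.98 and 0.99. The difference between control and injured cords largely sets this measure of likeness, since all control libraries lay above all HBO and injury libraries in the Xkr4 sum. NONMMUT099506.1 (16:20582693-20583523) averaged 17.0 ± 3.6 CPM in HBO cords, 15.6 ± 4.7 in injury cords and 35.1 ± 1.7 in control cords, and lay over no coding gene. The others lay over Strip2 (NONMMUT056067.2), Zdbf2 (NONMMUT001246.2), Nrg1 (NONMMUT130414.1) and Grm5 (MSTRG.49384.1). All 5 were lower in HBO and injury cords than in control cords, a direction that follows from picking them by likeness to the Xkr4 sum.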

How the data were processed

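Each library's file holds raw whole-number counts and FPKM values per noncoding transcript, deposited by the authors, per the file headers. The submitters' processing notes name HISAT2 and GRCm38; no source used here states the counting program or how strand was handled. Transcripts with 1 Ensembl name were summed to 67924 features. All 9 libraries were fitted by group using the quasi-likelihood test of edgeR 4.0.16 under R 4.3.3, after filterByExpr at 10 counts and TMM scaling, with Benjamini-Hochberg adjustment over 26602 features or 7084 sums. Sums take every transcript overlapping a coding gene's GENCODE M21 span on either strand, so that 6872 of the 7084 are distinct. Transcripts that touch coding exons are included. Named were all tested Xkr4 transcripts, up to 4 members of each gene list, taken by size of change in injury against control, and the 5 features most like the Xkr4 sum. Rbfox3 was named after its values were seen. The members and lists were chosen with earlier results of these data known. The fits were tested on simulated counts. Replicates differed beyond sampling noise, at 7.35 to 20.2 for chi-square over its degrees of freedom. Alternatives were DESeq2 1.42.0, RLE scaling, all features kept, a replicate block, 2 groups only, library totals from FPKM and leaving out each library. The sums were also fitted from transcripts off coding exons only, and from those on the gene's strand only.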

Additional observations from a re-analysis of the deposited data

How the results depend on the processing

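The single Xkr4 transcripts stayed below 0 against control in all 128 alternative values of each comparison (injury against control -1.20 to -0.20, HBO against control -0.87 to -0.05). Replicate numbers did not pair the libraries, since deviations of same-numbered libraries correlated at -0.05 to 0.05. With a replicate block the Xkr4 sum changed by -0.72 (adjusted p = 0.0622) in injury against control and -0.61 (0.0979) in HBO against control, and 2, 7 and 9 features were called in HBO against injury, injury against control and HBO against control, against 4, 1611 and 1140. HBO against control was also no longer called for the sum without a filter (-0.61, adjusted p = 0.0607), with library totals from FPKM (-0.62, 0.0559) and with the scaling of single features (-0.46). Leaving out 1 library gave -0.84 to -0.58 in injury against control, -0.70 to -0.56 in HBO against control and -0.051 to 0.21 in HBO against injury, the last below 0 without injury replicate 1. Feature calls then ran from 2 to 19 in HBO against injury, 34 to 1814 in injury against control and 20 to 1037 in HBO against control. DESeq2 called 55, 3674 and 3046 features, no filter left 308 and 204 against control, 2 groups only left 331 in HBO against control, and FPKM totals left 2 in HBO against injury. FPKM totals shifted the median of all features by -0.21 and -0.16 against control, and the calls in injury against control split into 640 higher and 1341 lower, in place of 965 and 646. The 5′ to 3′ ratio changed sign in injury against control without injury replicate 1 (-0.0064 to 0.19 over the libraries left out) and in HBO against control with the middle of the gene left out (0.11). In HBO against injury Gm37180, near 0, changed sign with RLE scaling (-0.0060), DESeq2 (-0.0029) and 2 groups only (-0.0012), and single libraries left out gave -0.15 to 0.14 for it, -0.18 to 0.036 for Gm19938, -0.31 to 0.27 for NONMMUT000007.2 and -0.14 to 0.44 for NONMMUT000004.2. The cause was not tested. The within-gene result kept its side of the threshold in every alternative run. Gm37686, NONMMUT000007.2 and Gm1992 had 13 to 45, 14 to 39 and 0 to 5 counts per library, which limits what their changes can show.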
